A study of Mus musculus with 2 samples.

Results

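The cells described here are colonic stromal cells of the mouse that carried Ackr4 transcripts with little Pi16, a combination used to look for trophocytes. A cell was a member with at least 1 raw UMI of Ackr4, at least 2 of Grem1 and Cd81 together and at least 10 of Col1a1, Col1a2 and Col3a1 together. It also had to hold fewer than 2 UMIs of Pi16, fewer than 3 of Epyc and fewer than 3 of Myoc. A UMI (unique molecular identifier) stands for 1 captured RNA molecule. Of 19463 cells kept in all, 14901 met the collagen condition and 1005 were members, 693 in the Cre library and 312 in the control library. The other 13896 collagen-positive cells, 5186 and 8710 in these libraries, served for comparison.

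Both libraries came from mice of 6 months with floxed Il10ra alleles. The mice of the Cre library (Il10ra ff; Pdgfra-cre) also carried a Cre recombinase under the Pdgfra promoter, and those of the control library (Il10ra ff) did not. Pdgfra is active in most fibroblasts of the gut, so the recombinase is not particular to the cells described here. The study asked, per its title, how the IL-10 receptor of fibroblasts bears on type I interferon signalling in the large intestine. Live cells positive for Podoplanin and negative for CD45, CD31 and EpCAM were sorted from whole colons of 2 mice per genotype. Each genotype gave 1 library, with no label that separates the mice. All differences between genotypes are therefore differences between 2 libraries with no replicate check, no p-value was computed, and intervals (95%) cover counting error only. Genotype, sort and library preparation cannot be told apart.

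Trophocytes were described in the mouse gut as stromal cells below the crypts that carry CD81 and little PDGFRA and secrete Gremlin 1. Gremlin 1, the product of Grem1, binds BMP proteins and keeps them from their receptors, and with WNT ligands and R-spondins this supports the stem cells at the crypt base. Ackr4 encodes an atypical receptor that takes up the chemokines CCL19, CCL21 and CCL25 without signalling as other chemokine receptors do. Pi16 marks adventitial fibroblasts around vessels, which share several of these genes.

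The members held 6794342 UMIs in the Cre library and 2451147 in the control library, with medians of 9385 and 7231.5 per cell. Among other collagen-positive cells the medians were 8675.5 and 7374. Of the kept cells, 109 barcodes occurred in both libraries, and 8 members had such a barcode. Levels are given as CPM, counts per 1000000 of the UMIs summed over a group of cells.

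Most Ackr4-positive cells did not become members. In the Cre library 1824 collagen-positive cells had an Ackr4 UMI, 1712 of them also met the Grem1 and Cd81 condition, and 738 remained once cells with 2 or more Pi16 UMIs were set aside. In the control library these numbers were 1363, 1154 and 328. Ackr4 (ENSMUSG00000079355) had a UMI in 53.3% of the Pi16-positive cells of the Cre library and in 46.3% of those of the control library. The Epyc and Myoc conditions then removed few cells.

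The thresholds cut through a continuum of cells. Exactly 1 Ackr4 UMI was found in 271 members of the Cre library and 165 of the control library, while 1813 and 2541 cells met every other condition with no Ackr4 UMI. Angptl1 stood at 9.27 and 15.2 CPM in the members with 1 Ackr4 UMI and at 2.22 and 3.42 CPM in the cells with none. Exactly 1 Pi16 UMI was found in 172 and 74 members, and 2 UMIs kept out 91 and 42 cells. For Grem1 and Cd81 together, 47 and 46 members had 2 UMIs and 30 and 43 cells outside had 1. For the collagen sum, 152 and 44 members had 10 to 14 UMIs and 135 and 48 cells outside had 5 to 9.

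The label of trophocyte held only in part. Cd81, which encodes a tetraspanin, had a UMI in 96.0% of members of the Cre library and 94.6% of those of the control library, so most members met the joint condition through Cd81. Grem1 (ENSMUSG00000074934) had a UMI in 61.9% (58.2 to 65.5) and 39.4% (34.0 to 45.1) of members, against 47.6% and 32.7% of other collagen-positive cells, where it is thus not rare. Members were not low in Pdgfra, which had a UMI in 85.1% and 77.6% of them and in 83.2% and 74.4% of other collagen-positive cells. Angptl1 and Stc2, markers that the rule did not use, were sparse. Angptl1, a secreted angiopoietin-like protein, had a UMI in 12.1% and 15.4% of members and in 2.91% and 2.41% of other cells. Stc2, a secreted stanniocalcin, had a UMI in 31.0% and 20.2% of members and in 10.9% and 5.09% of other cells. Among glia-like cells, which should lack Ackr4, 3 of 79 in the Cre library and 0 of 47 in the control library had an Ackr4 UMI, at median depths of 5579 and 4383 UMIs. That is below the 21.8% and 12.1% of other collagen-positive cells with an Ackr4 UMI. The cells are therefore called Ackr4-positive, Pi16-low cells below.

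**Figure D1:**
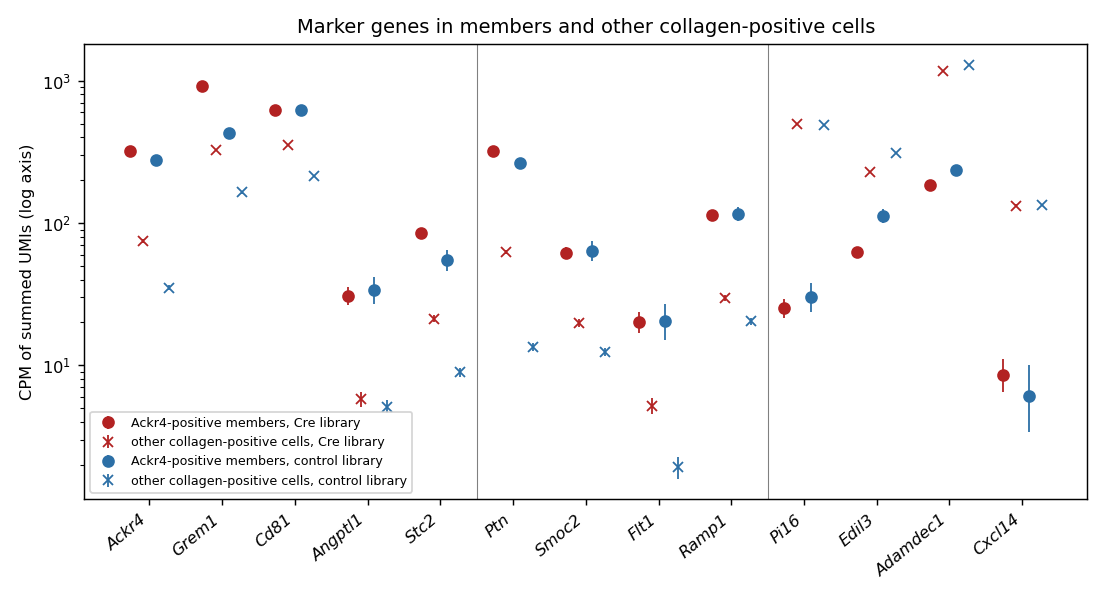
CPM of 13 genes on a log axis in Ackr4-positive, Pi16-low members (circles) and other collagen-positive cells (crosses) of the Cre (red) and control (blue) libraries, with exact 95% Poisson intervals. The left block holds rule genes and markers, the middle block genes high in members and the right block genes low in them, such as Cxcl14 at 8.54 and 6.12 CPM in members.

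The members were a mixture. Genes for subdividing them were picked after their leading genes had been seen, so the subgroups are a description. A first subgroup had at least 3 UMIs of 9 mesothelial genes (Upk3b, Upk1b, Krt19, Krt7, Krt8, Krt18, Msln, Lrrn4, Bnc1) and held 4 members in the Cre library and 10 in the control library. A second had at least 3 UMIs of Kcnn3, P2ry1, Adra1a, Car8, Grm7 and Chodl and held 238 and 91 members, or 34.3% and 29.2%. The remainder with a Grem1 UMI held 329 and 101 members (47.5% and 32.4%), and that with none held 122 and 110 (17.6% and 35.3%).

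The Kcnn3-marker subgroup carried genes of the interstitial PDGFRA cells of gut muscle, which relay purinergic signals to smooth muscle through the receptor P2ry1 and the potassium channel Kcnn3. Genes that did not define the subgroup differed along with these. Ptn, the secreted growth factor pleiotrophin, was at 702 CPM in the Cre library and 763 CPM in the control library, against 88.5 and 9.06 CPM in the Grem1-positive remainder. Rgs5, a regulator of G protein signalling, stood at 360 and 438 CPM, against 21.2 and 11.6 CPM. Kitl, the ligand of the receptor Kit, stood at 406 and 400 CPM, against 122 and 129 CPM, and Tnc, the matrix protein tenascin C, at 543 and 429 CPM, against 116 and 73.7 CPM. Pdgfra was at 502 and 483 CPM, against 274 and 216 CPM. In both libraries each of these 5 genes was thus higher in the Kcnn3-marker subgroup.

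The Grem1-positive remainder was higher in genes of WNT signalling than the Kcnn3-marker subgroup. Rspo3, an R-spondin that raises WNT receptor levels, was at 109 and 90.6 CPM there, against 64.7 and 21.8 CPM in the Kcnn3-marker subgroup. Wnt2b, a canonical WNT ligand, was at 130 and 91.8 CPM, against 40.5 and 26.9 CPM. C3, on which all complement pathways converge, was at 3836 and 2035 CPM, against 1944 and 699 CPM. Markers of lamina propria fibroblasts were also most frequent in the Grem1-positive remainder. At least 2 UMIs of Edil3 and Adamdec1, lamina propria genes, were held by 25.5% of its Cre cells and 28.7% of its control cells, against 9.66% and 11.0% of the Kcnn3-marker subgroup and 3.28% and 8.18% of the Grem1-negative remainder. Npy1r and Chrdl1, markers of a submucosal-type fibroblast, did not share this order in both libraries. At least 2 of their UMIs were held by 32.8% and 4.95% of the Grem1-positive remainder, against 28.7% and 9.09% of the Grem1-negative remainder. Wnt2b had a UMI in 73.2% and 59.1% of Edil3-positive cells and C3 in 99.6% and 94.4% of Pi16-positive cells, so neither gene is particular to members. Against the Grem1-positive remainder, the Grem1-negative remainder was lower in Rspo3 (45.7 and 28.6 CPM) and Wnt2b (21.5 and 22.1 CPM). It stood high in Ackr3, a second scavenging chemokine receptor, at 332 and 480 CPM, against 216 and 251 CPM in the Grem1-positive remainder. Ackr3 was at 534 and 689 CPM in the Pi16-positive cells.

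**Figure D2:**
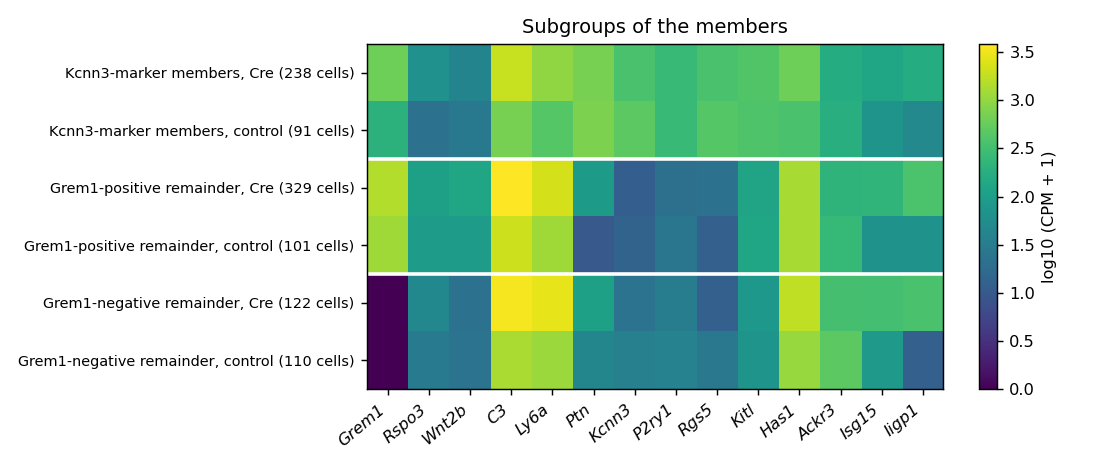
Heat map of log10 (CPM + 1) for 14 genes (columns) in 3 subgroups of the members, each with its Cre row above its control row; the mesothelial-marker cells are not drawn. Ptn, Kcnn3, P2ry1 and Rgs5 are brightest in the Kcnn3-marker rows, and Grem1, Rspo3 and Wnt2b in the Grem1-positive rows.

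Against other collagen-positive cells, members were chosen on Ackr4, Grem1, Cd81 and low Pi16, and every gene was read from the same cells, so these differences describe the selection and carry no test. Ratios are log2 ratios with 1 CPM added to both sides, for genes that averaged 10 CPM or more over the groups compared. In the Cre library 81 of 9012 such genes were at least 2-fold higher (0.899%) and 177 at least 2-fold lower (1.96%). In the control library 179 of 9026 were higher (1.98%) and 266 lower (2.95%). In both libraries 53 of 8733 genes were higher (0.607%) and 117 lower (1.34%).

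The 6 genes that define the Kcnn3-marker subgroup were picked from the genes that led in both libraries and are not counted as a result here. Ptn was highest, at 320 CPM in members against 62.7 CPM in other cells of the Cre library and at 264 against 13.4 CPM in the control library. Ramp1, a subunit of the receptor for calcitonin gene-related peptide, was at 114 against 29.7 CPM and 116 against 20.4 CPM. Smoc2, a matricellular protein, was at 62.0 against 19.8 CPM and 63.6 against 12.4 CPM. Within members both were highest in the Kcnn3-marker subgroup, Ramp1 at 248 and 231 CPM and Smoc2 at 125 and 136 CPM. Spock2, a proteoglycan, was at 25.8 against 8.30 CPM and 45.3 against 5.78 CPM, and Dlg2, a scaffold protein, at 80.8 against 27.8 CPM and 54.7 against 11.2 CPM. Flt1, a receptor for vascular endothelial growth factor, was at 20.02 against 5.20 CPM and 20.4 against 1.92 CPM. Without the Kcnn3-marker and mesothelial-marker members, the number of genes higher in both libraries was 14 in place of 53, and in the Grem1-positive remainder it was 18. In the Grem1-positive remainder of the control library Ptn was lower than in other cells, and Smoc2 was lower there in the Cre library.

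Angptl1 and Stc2 did not follow the Kcnn3 markers. In members Angptl1 was at 30.8 CPM against 5.79 CPM in other cells of the Cre library, and at 33.9 against 5.12 CPM in the control library. Within members it was at 36.9 and 34.6 CPM in the Kcnn3-marker subgroup and at 34.1 and 50.5 CPM in the Grem1-positive remainder. In the Grem1-negative remainder it was lower, at 8.96 and 22.1 CPM. Stc2 was at 84.5 against 21.3 CPM and 54.7 against 8.91 CPM. It stood between 72.1 and 101 CPM in the 3 larger subgroups of the Cre library and between 41.4 and 67.9 CPM in those of the control library.

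Several genes low in members are known from fibroblasts close to the epithelium. The chemokine Cxcl14 was at 8.54 CPM in members against 133 CPM in other cells of the Cre library, and at 6.12 against 134 CPM in the control library. Sox6, a transcription factor of subepithelial fibroblasts, was at 10.4 against 96.05 CPM and 18.8 against 153 CPM. Adamdec1, a protease of lamina propria fibroblasts, was at 184 against 1171 CPM and 234 against 1288 CPM. Low Sox6 and Adamdec1 were not particular to members. Sox6 had a UMI in 1.73% and 4.81% of members, against 1.40% and 4.18% of Pi16-positive cells. Adamdec1 had a UMI in 19.6% and 16.7% of members, against 10.4% and 16.4% of Pi16-positive cells. Of 9 measured BMP ligands, 3 were at least 2-fold lower in the Cre library and 5 in the control library, with median log2 ratios of -0.81 and -1.17. Bmp5 was at 21.3 against 130 CPM and 40.4 against 247 CPM, and Bmp7 at 4.27 against 31.1 CPM and 7.75 against 73.5 CPM. Gdf6 in the Cre library and Gdf10 in the control library were the 1 BMP-family ligand at least 2-fold higher.

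Rspo3 was higher in members, by less than 2-fold in the Cre library, and Wnt4 was lower. Of 9 measured WNT ligands and R-spondins, 0 were at least 2-fold higher and 2 lower in the Cre library, and 2 higher and 3 lower in the control library. Rspo3 was at 81.5 CPM in members against 55.2 CPM in other cells of the Cre library and at 44.5 against 16.3 CPM in the control library. Rspo2 was also higher, at 11.6 against 1.66 CPM and 5.71 against 0.988 CPM, but averaged under the 10 CPM minimum and is not among the measured genes. Wnt4 was at 11.8 against 77.6 CPM and 33.5 against 173 CPM, and the secreted WNT inhibitor Wif1 at 1.62 against 23.95 CPM and 1.22 against 24.3 CPM. Rspo1 was at 27.1 against 21.6 CPM and 46.1 against 7.08 CPM, but at 13.3 CPM in control members once the 10 mesothelial-marker cells were left out. Of the measured BMP antagonists, only Grem1, a rule gene, was at least 2-fold higher, in either library, and the list medians were 0.04 in the Cre and -0.14 in the control library.

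**Figure D3:**
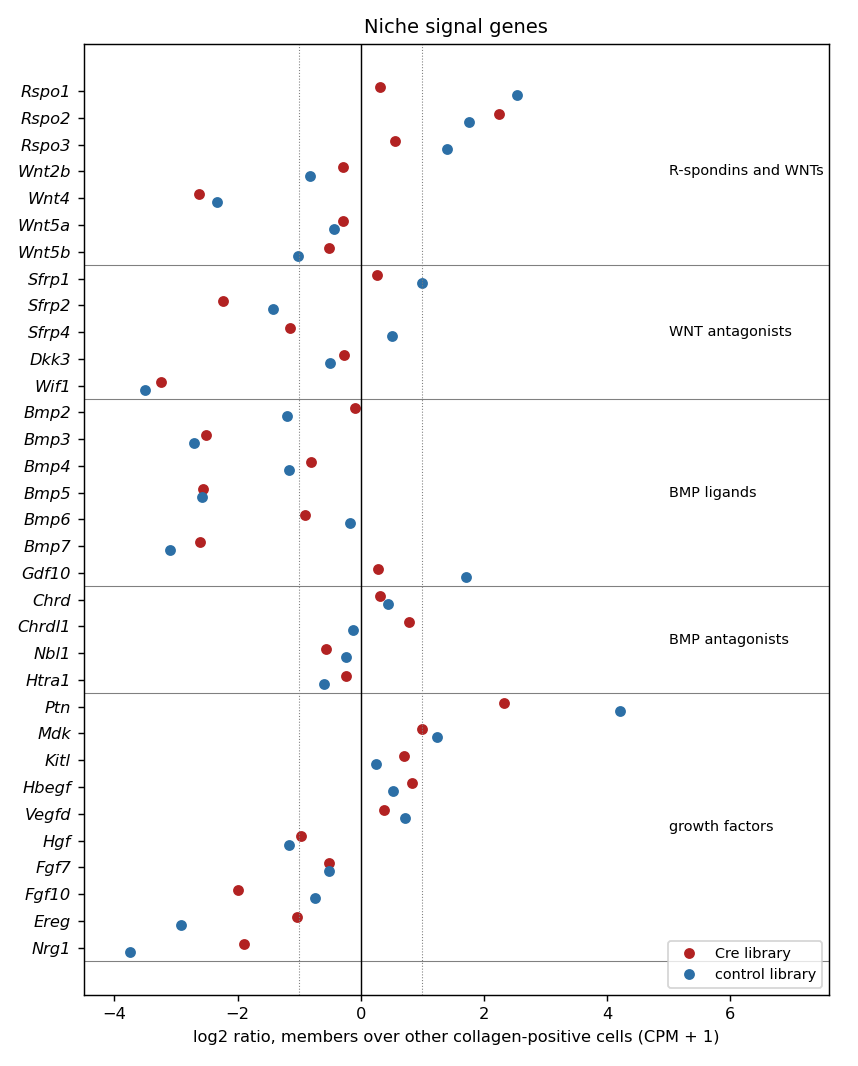
Log2 ratios of members over other collagen-positive cells for genes of niche signals, 1 row per gene, with the Cre library in red and the control library in blue; dotted lines mark 2-fold. Ptn, Rspo2 and Rspo3 lie to the right of 0 in both libraries and Wnt4, Wif1, Bmp3, Bmp5 and Bmp7 far to the left.

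Cxcl12 and Cxcl13, which guide lymphocytes, were lower in members. Cxcl12 was at 842 CPM in members against 1495 CPM in other cells of the Cre library and at 676 against 1185 CPM in the control library. Cxcl13, which attracts B cells, was at 110 against 443 CPM and 37.1 against 93.7 CPM. Low Cxcl12 and Cxcl13 were not particular to members. A Cxcl12 UMI was found in 90.04% and 85.3% of members, against 83.5% and 64.2% of Pi16-positive cells. For Cxcl13 these shares were 15.3% and 7.69%, against 15.6% and 5.62%. UMIs of the ligands that ACKR4 takes up were few in members: Ccl21a had 7 in the Cre library and 3 in the control library, and Ccl25 had 34 and 18. Ccl19 had a UMI in 2.45% and 0.962% of members, against 2.16% and 0.459% of other collagen-positive cells.

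Beside Pi16-positive cells, members had more Dpt and less Ly6c1. Cd81, through which most members met the rule, was at 624 CPM in members against 618 CPM in Pi16-positive cells of the Cre library, and at 620 against 580 CPM in the control library. Dpt, the matrix protein dermatopontin, was at 2245 against 1614 CPM and 2285 against 1647 CPM. Over 26 marker genes of trophocytes and adventitial cells, the median log2 ratio of members over Pi16-positive cells was -0.46 in the Cre library and -0.38 in the control library. Ly6c1, a surface protein, was at 635 against 1426 CPM and 226 against 820 CPM. Grem1 was at 913 against 238 CPM and 432 against 59.4 CPM, but the rule had selected on it. In Edil3-positive lamina propria cells, Grem1 was at 460 and 243 CPM while Ackr4 was at 1.04 and 0.712 CPM. Cells that met the rule had been left out of that group, so its low Ackr4 follows in part from the choice of cells.

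Members made up 11.8% (11.0 to 12.6) of the collagen-positive cells of the Cre library and 3.46% (3.09 to 3.86) of those of the control library. With each cell thinned to 4000 UMIs before the rule was applied, the shares were 9.02% and 2.60%. Grem1, a rule gene, itself differed between the libraries, as did the share of other cell types, and the sort can set such shares too. The 2 shares are therefore given as they are and are not called a change in cell number.

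Between the libraries, the rule genes were not equally expressed in members. Ackr4 was at 320 CPM (306 to 333) in Cre members and 275 CPM (255 to 297) in control members, and Cd81 at 624 and 620 CPM. Grem1 was at 913 CPM (890 to 936) in Cre members and 432 CPM (406 to 459) in control members. In the Grem1-positive remainder, which a Grem1 UMI defines, it was at 1493 and 1168 CPM, and in the Kcnn3-marker subgroup at 621 and 197 CPM.

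The targeted gene could not be checked in these cells. Il10ra (ENSMUSG00000032089) had 2 UMIs in Cre members, or 0.294 CPM (0.0356 to 1.06), and 0 UMIs in control members, which allows up to 1.22 CPM. Il10rb, the second chain of the IL-10 receptor, was at 46.5 and 34.7 CPM. Pdgfra, whose promoter drives the Cre, was at 363 and 320 CPM, and Pdpn, which encodes the Podoplanin used for the sort, at 163 and 158 CPM. Of 13 measured genes of IL-10 receptor and STAT signalling, 0 were at least 2-fold higher or lower, with a median log2 ratio of 0.33. Stat3, which carries the IL-10 signal, was at 392 and 355 CPM, and its feedback inhibitor Socs3 at 633 and 512 CPM.

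Interferon-response genes were higher in Cre members than in control members. Over all genes, 110 of 8905 measured in members were at least 2-fold higher in the Cre library (1.24%) and 74 at least 2-fold lower (0.831%), with a median log2 ratio of -0.03. Of 59 genes in the type I interferon list, 44 were measured, 18 were higher by 2-fold or more and 0 lower by as much, and the list's median log2 ratio was 0.89. The level of Isg15, whose product is attached to other proteins much as ubiquitin is, was 203 CPM in Cre members against 78.7 CPM in control members, a ratio of 2.58 (2.22 to 3.01). Ifit1, which binds viral RNA, was at 41.1 against 6.53 CPM, a ratio of 6.29 (3.81 to 11.2). The transcription factor Irf7 was at 55.8 against 19.2 CPM.

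Of 3 lists for interferon and antigen presentation, the one of genes that respond to interferon gamma had the largest median at the 10 CPM minimum. Of 32 listed genes 24 were measured, 18 were higher by 2-fold or more and the median log2 ratio was 1.77. With a 50 CPM minimum that median was 0.92. Iigp1, a GTPase that attacks the vacuoles of intracellular parasites, was at 289 CPM in Cre members against 40.8 CPM in control members. Its relatives Ifi47 and Igtp were at 84.5 against 7.75 CPM and 64.0 against 12.2 CPM. The guanylate-binding proteins Gbp2 and Gbp3 were at 121 against 45.3 CPM and 34.0 against 4.90 CPM, and Gbp5 at 21.3 against 2.45 CPM. Gbp9 had 94 UMIs in Cre members and 0 in control members, which makes it at least 11.3-fold higher against a floor of 3 UMIs in the control library. The type I and interferon gamma lists overlap in their known inducers, and whether an interferon acted, and which, was not tested. The interferon receptor chains differed less: Ifnar1 was at 26.6 and 26.5 CPM, Ifnar2 at 185 and 130 CPM, and Ifngr1 at 133 and 134 CPM.

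Promoter windows are shown for 3 of these genes, since interferon-responsive transcription factors bind short motifs there. The interferon-stimulated response element was searched here as GAAANNGAAA and the gamma-activated site as TTCNNNGAA, each on both strands. Windows run from 250 bases before to 50 bases after the transcript start, from RefSeq on build GRCm38.p6, and capitals mark matches to either motif. Ifit1 and Isg15 were chosen as type I genes with several matches, and Igtp as a gene with both motifs.
Ifit1 (chr19:34640639-34640938, plus strand): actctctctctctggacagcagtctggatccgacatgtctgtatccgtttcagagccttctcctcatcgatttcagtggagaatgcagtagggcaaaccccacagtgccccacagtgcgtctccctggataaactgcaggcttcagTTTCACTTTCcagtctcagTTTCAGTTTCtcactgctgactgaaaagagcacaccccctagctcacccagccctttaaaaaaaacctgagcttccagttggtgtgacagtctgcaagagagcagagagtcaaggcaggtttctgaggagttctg
Isg15 (chr4:156200769-156201068, minus strand): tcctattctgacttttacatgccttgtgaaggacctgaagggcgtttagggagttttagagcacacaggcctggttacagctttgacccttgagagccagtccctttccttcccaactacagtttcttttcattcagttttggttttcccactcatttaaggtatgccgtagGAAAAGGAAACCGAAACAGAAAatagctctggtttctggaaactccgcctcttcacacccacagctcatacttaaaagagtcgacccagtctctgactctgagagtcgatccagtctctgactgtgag
Igtp (chr11:58199306-58199605, plus strand): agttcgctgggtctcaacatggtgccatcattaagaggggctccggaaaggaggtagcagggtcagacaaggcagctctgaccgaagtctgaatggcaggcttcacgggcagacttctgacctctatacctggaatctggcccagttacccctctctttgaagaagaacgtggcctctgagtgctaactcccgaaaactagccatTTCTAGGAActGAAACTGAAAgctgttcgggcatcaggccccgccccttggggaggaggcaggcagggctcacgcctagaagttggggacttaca

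Over all 32851 windows, of 27025 genes, the first motif was found in 3.44% of windows and 3.99% of genes, and the second in 8.30% of windows and 9.55% of genes. Of the 18 type I genes at least 2-fold higher in Cre members, 12 had a window in the table and 8 of these held the first motif, while 0 held the second. Of the 22 measured type I genes with a window that did not reach 2-fold, 6 held the first motif and 6 the second. Of the 18 interferon gamma genes at least 2-fold higher, 13 had a window, 9 held the first motif and 6 the second, and of the 4 that did not reach 2-fold, 1 held the first and 2 the second. The first motif was found in 2 of 10 MHC class I genes that were at least 2-fold higher and in 3 of 10 that were not. The matches describe letters in these windows and do not show binding.

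MHC class I genes were higher too. Of 23 measured genes for class I molecules and their peptide loading, 11 were higher by 2-fold or more and 0 lower by as much, and the median log2 ratio was 0.96. The classical heavy chain H2-K1 was at 1410 CPM in Cre members against 434 CPM in control members, a ratio of 3.25 (3.05 to 3.47), and its light chain B2m at 1843 against 679 CPM. Nlrc5, the transcriptional activator of class I genes, was at 36.2 against 7.75 CPM. The immunoproteasome subunit Psmb8 was at 145 against 55.5 CPM and the peptide transporter subunit Tap1 at 51.2 against 15.1 CPM. Psmb8, Psmb9 and Tap1 are also in the interferon gamma list and count among its genes at least 2-fold higher, so these lists overlap. H2-Q6 and H2-Q7 had the largest ratios of the ranked genes, at 97.7 against 1.63 CPM and 92.3 against 4.90 CPM. They are near-identical copies that the counting may not tell apart, so their ratios are uncertain. What part this has in the difference between the libraries was not tested. None of the 7 listed MHC class II genes reached the 10 CPM minimum in members, and Cd74, the class II invariant chain, had a UMI in 3.46% of Cre members and 1.60% of control members.

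**Figure D4:**
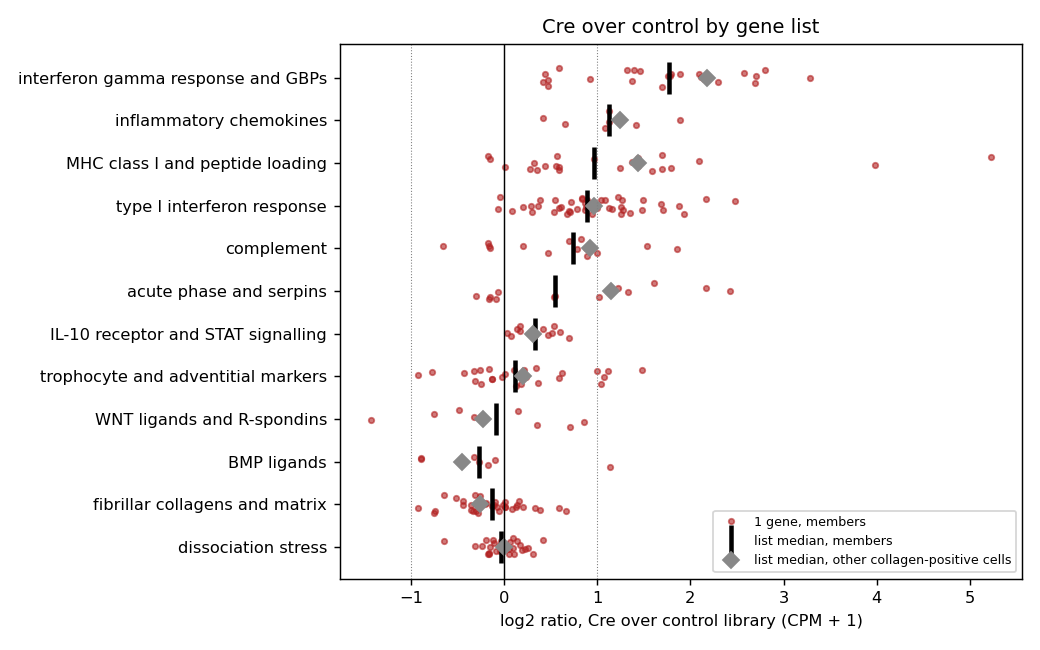
Log2 ratios of the Cre over the control library by gene list. Each red point is 1 measured gene in members, the black bar is the list's median in members and the grey diamond its median in other collagen-positive cells; dotted lines mark 2-fold. The interferon, MHC and chemokine lists lie to the right of 0, and collagens and dissociation stress close to it.

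The same lists were higher outside the members too. Among other collagen-positive cells, 177 of 9127 genes were at least 2-fold higher in the Cre library (1.94%) and 109 lower (1.19%). The list medians there were 0.97 for the type I, 2.18 for the interferon gamma and 1.44 for the MHC class I list, against 0.89, 1.77 and 0.96 in members. In Pi16-positive cells they were 1.22, 2.57 and 1.48. Whether the lists differ less in members than in those cells cannot be tested with 1 library per genotype.

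Among members, the differences were largest in the Grem1-negative remainder and smallest in the Kcnn3-marker subgroup for each of the 3 lists. The type I list had medians of 1.42 in the Grem1-negative remainder, 0.97 in the Grem1-positive remainder and 0.68 in the Kcnn3-marker subgroup. For the interferon gamma list the medians were 2.62, 1.88 and 1.14, and for the MHC class I list 1.89, 0.92 and 0.65. Ifit1 was at 104 against 9.11 CPM in the Grem1-negative remainder, 45.4 against 6.47 CPM in the Grem1-positive remainder and 8.73 against 1.28 CPM in the Kcnn3-marker subgroup. The smaller subgroups have fewer UMIs, and different genes passed the 10 CPM minimum in each. In the Grem1-positive remainder 228 of 8708 genes were at least 2-fold higher (2.62%) and 115 lower (1.32%).

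Single cells spread widely within each library. With each cell thinned to 4000 UMIs, the median number of UMIs of the type I list was 32 over 672 Cre members and 22 over 300 control members; 21 and 12 shallower members were left out. The medians in other collagen-positive cells were 39 and 23. For the MHC class I list the medians were 28 in Cre members and 15 in control members, against 43 and 16 in other cells. For the interferon gamma list they were 22 and 13 in members, against 23 and 12 in other cells. Genes of dissociation stress differed little between the libraries, with medians of 195 UMIs per Cre member and 207 per control member.

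**Figure D5:**
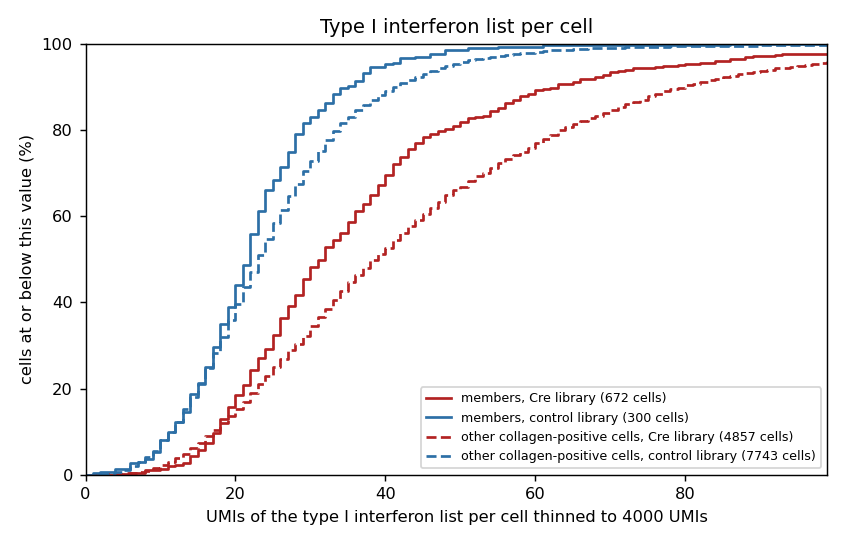
Cumulative share of cells (%) by the number of type I interferon list UMIs per cell thinned to 4000 UMIs, for members (solid) and other collagen-positive cells (dashed) of the Cre (red) and control (blue) libraries. Both Cre curves lie to the right of the control curves, and Cre members reach their median at 32 UMIs against 22 in control members.

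Inflammatory chemokines were higher in Cre members. All 7 measured genes of this list had a ratio above 1 and 5 were at least 2-fold higher. Cxcl10, an attractant of activated T cells, was at 298 CPM in Cre members against 79.6 CPM in control members. Ccl2 and Ccl7, attractants of monocytes, were at 570 against 213 CPM and 619 against 284 CPM, and Cxcl1, an attractant of neutrophils, at 1745 against 824 CPM. Ccl11, an attractant of eosinophils, differed less, at 568 against 426 CPM. Cxcl9 had 61 UMIs in Cre members and 0 in control members. It was thus at least 7.34-fold higher against the same floor. It stood at 8.98 CPM in Cre members against 100.1 CPM in other cells of the Cre library.

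Complement and acute phase genes differed in part. Of 14 measured complement genes, 2 were at least 2-fold higher, Cfb at 196 against 53.4 CPM and C4b at 626 against 216 CPM. C3 was at 3090 against 1548 CPM. Of 13 measured acute phase genes 6 were at least 2-fold higher, among them the protease inhibitor Serpina3n at 513 against 167 CPM and the metalloreductase Steap4 at 119 against 46.5 CPM. Serpina3g, a relative of Serpina3n, was at 63.4 against 11.0 CPM. Saa3, a serum amyloid protein, had a UMI in 12 of 693 Cre members and 0 of 312 control members, which by a floor of 3 cells allows a share of cells with a UMI of up to 0.962%.

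Among niche signals, some BMP antagonists differed between the libraries and most WNT and BMP ligands did not reach 2-fold. Of 8 measured WNT ligands and R-spondins, 0 were at least 2-fold higher and 1 lower, Wnt4 at 11.8 CPM in Cre members against 33.5 CPM in control members. Rspo3 was at 81.5 against 44.5 CPM and Wnt2b at 78.5 against 47.7 CPM. Of 7 measured BMP ligands only Gdf6 was at least 2-fold higher, at 17.4 against 7.34 CPM, while Bmp5 was at 21.3 against 40.4 CPM and Bmp6 at 75.1 against 140 CPM. Of 9 measured BMP antagonists 3 were at least 2-fold higher, among them Chrdl1 at 46.4 against 8.16 CPM. Grem1 was also among the 3, but the rule had selected on it. Chrdl1 was at 78.2 against 7.76 CPM in the Grem1-positive remainder. Cells with at least 2 UMIs of Npy1r and Chrdl1, markers of a submucosal-type fibroblast, made up 32.8% of that remainder in the Cre library and 4.95% in the control library, 22.8% and 6.41% of members, and 21.8% and 6.46% of other cells. The part of such cells in the Chrdl1 ratio was not tested. The alarmin Il33 was at 96.4 against 46.5 CPM.

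Several growth factors and cytokines differed in level between members and other cells. Of 15 measured growth factors for epithelium, 1 was at least 2-fold higher in members and 3 lower than in other cells of the Cre library, and of 16 in the control library 2 were higher and 4 lower. Ptn was the highest in both. Mdk, the relative of Ptn, was at 64.6 CPM in members against 31.9 CPM in other cells of the Cre library and at 87.3 against 36.4 CPM in the control library. Nrg1, a ligand of ERBB receptors, was at 5.004 against 21.4 CPM and 7.34 against 111 CPM, and Tnfsf13b, a survival factor for B cells, at 48.0 against 160 CPM and 42.0 against 152 CPM. Between the libraries, 1 of 14 growth factors measured in members was at least 2-fold higher, Ereg, an EGF receptor ligand, at 56.1 CPM in Cre members against 26.1 CPM in control members. Its log2 ratio was 1.07, and -0.00076 when the rule was applied after thinning. Among other cells Ereg ran the other way, at 116 against 203 CPM. Of 12 measured cytokines and immune ligands 2 were at least 2-fold higher in Cre members, Il33 and Cd274, the inhibitory ligand PD-L1, at 15.01 against 6.12 CPM. Il6 was at 139 against 92.2 CPM and the adhesion molecule Icam1 at 661 against 434 CPM.

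None of the listed matrix genes reached 2-fold. Of 35 collagen and matrix genes, all measured, 0 were at least 2-fold higher or lower, with a median log2 ratio of -0.13. Col3a1, a rule gene, was at 1622 CPM in Cre members against 2317 CPM in control members, Postn, the matrix protein periostin, at 391 against 655 CPM, and Dcn, the proteoglycan decorin, at 17550 against 15241 CPM. The matrix protease Mmp3, from another list, was at 87.3 against 29.4 CPM. Hpse2, a relative of heparanase, was at 78.9 against 14.7 CPM and Chl1, a cell adhesion molecule, at 20.2 against 3.26 CPM; both were among the 12 highest ranked genes.

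Many genes lower in Cre members came from few control cells. Of the 12 lowest ranked genes, Krt8, Krt18, Krt7, Krt19, Gpm6a, Upk3b, Slpi and Muc16 were found almost wholly in the mesothelial-marker members, 4 in the Cre and 10 in the control library. Krt8, Krt18, Krt7, Krt19 and Upk3b helped to define that subgroup, so their values with and without it follow from that choice. Gpm6a, Slpi and Muc16 did not define it. The 9 mesothelial markers summed to 92.9 CPM in Cre members against 582 CPM in control members, with 0 of the 9 at 0 in either library. Without those cells Upk3b was at 0.297 against 0 CPM, and 44 of 8841 genes were at least 2-fold lower (0.498%) and 113 higher (1.28%). The counts of higher type I, interferon gamma and MHC class I genes were then 19, 18 and 11. Kit, a marker of interstitial cells of Cajal, was at 7.80 against 39.6 CPM. At least 3 UMIs of Kit were held by 2 Cre and 3 control members, none of them among the mesothelial-marker cells, and the part of these few cells in that ratio was not tested. Ano1, a chloride channel also known from those cells, was at 5.59 against 47.7 CPM, and at 2.82 against 31.9 CPM without the mesothelial-marker members. Of 11 control members with at least 3 UMIs of Kit and Ano1 together, 8 were mesothelial-marker cells.

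Pcp4 and Kcnip4, which encode calcium-linked proteins of neurons and muscle, were at 0.294 against 20.8 CPM and 2.94 against 44.5 CPM. In the control library both were found in the Grem1-negative remainder, at 66.3 and 142 CPM, and were at 0 CPM in the Kcnn3-marker subgroup and the Grem1-positive remainder. The number of cells that held these UMIs is not given here, and whether they came from few cells was not tested.

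Stmn2, a microtubule-binding protein best known from neurons, was lower in Cre members and in 3 of their subgroups. It was at 9.71 CPM in Cre members against 136 CPM in control members, 14.03-fold (10.7 to 18.6) higher in control. The ratio ran the same way in the Kcnn3-marker subgroup (5.95 against 58.9 CPM), the Grem1-positive remainder (8.37 against 247 CPM) and the Grem1-negative remainder (12.6 against 118 CPM). Of its UMIs, 55 of 66 in Cre members and 328 of 334 in control members lay outside the mesothelial-marker cells. Among other collagen-positive cells it was at 31.0 against 316 CPM. The smooth muscle gene Myh11 was at 10.7 against 67.7 CPM in members, and 2 of 8 measured smooth muscle genes were at least 2-fold lower. The Myh11 ratio rests on few cells, as 12 Cre and 12 control members had a UMI of it. At least 2 UMIs of Myh11 and Des, also a smooth muscle gene, were held by 5.63% of Cre and 3.85% of control members. With at least 2 Ackr4 UMIs required, Myh11 was instead higher in Cre members (log2 ratio 0.63). The sum over 11 smooth muscle genes was 380 against 524 CPM. Their part in the other differences was not tested.

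Transcripts of cells that the sort should remove were rare in members. Ptprc, which encodes CD45, had 0 UMIs in both libraries, and Epcam had 0 UMIs in Cre members and 2 in control members. The 14 leukocyte markers summed to 17.8 CPM in Cre members and 15.9 CPM in control members. The 10 blood endothelial markers summed to 24.1 and 39.2 CPM, with Cdh5, Tie1 and Cldn5 at 0 in both. The 10 epithelial markers summed to 12.1 and 97.9 CPM, and in the mesothelial-marker cells alone to 789 and 1771 CPM. Haemoglobin gene Hbb-bs had a UMI in 2.02% of Cre members and 0.321% of control members.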

How the data were processed

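The authors sorted stromal cells from mouse colon and made 1 droplet library (10x 5' chemistry, per the labels' protocols) per genotype. The deposited values are UMI counts per gene and cell barcode, made with Cell Ranger 8.0.1 on build GRCm39, per the submitters' processing notes. Of 8627 Cre and 11380 control barcodes, 8413 and 11050 passed the rule's limits, 500 genes or more and a mitochondrial share of no more than 10%. Called doublets were not removed, as the rule has no such step. Scrublet in scanpy 1.11.5 called 111 and 393 cells, of which 19 and 20 were members, and leaving them out was tried. UMIs were summed over cells and given as CPM. Log2 ratios had 1 CPM added, genes needed a mean of 10 CPM, and 2-fold marked a difference. Intervals were exact (Poisson for sums, binomial for ratios, Clopper-Pearson for shares) at 95%. Only those for ratios were tested on simulated data, which held counting error alone. Genes named were those of highest and lowest ratio, the rule genes and listed genes. The members, gene lists and subgroups were chosen with earlier results of these data known. No replicate exists, so no test was run.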

Additional observations from a re-analysis of the deposited data

Results flagged for a closer look

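For 4 named genes the ratio of Cre over control ran one way in members and the other way in the remaining collagen-positive cells, by at least 1.5-fold in both; this difference was not tested. Rspo1 had a log2 ratio of -0.75 in members (27.1 against 46.1 CPM) and 1.49 in other cells (21.6 against 7.08 CPM). Slpi, a protease inhibitor, had -2.77 in members (22.7 against 160 CPM) and 1.10 in other cells (24.4 against 10.8 CPM). Kit had -2.20 in members (7.80 against 39.6 CPM) and 0.73 in other cells (3.10 against 1.47 CPM). Ereg had 1.07 in members (56.1 against 26.1 CPM) and -0.81 in other cells (116 against 203 CPM). Without the mesothelial-marker members, Slpi was at 3.41 against 3.87 CPM and Rspo1 at 21.2 against 13.3 CPM, while Kit was at 7.86 against 41.8 CPM.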

How the results depend on the processing

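Each genotype has 1 library, so no replicate could be left out. No paired analysis was possible because the genotypes share no replicates. In members the type I interferon list kept a median between 0.73 and 1.11 under all alternatives run. Counts depended on the gene minimum. Genes at least 2-fold higher in Cre members numbered 506 with no minimum, 41 with a 50 CPM minimum, 65 with 10 CPM added, 170 with a Grem1 UMI required and 228 in the Grem1-positive remainder, against 110. Genes lower numbered 483, 7 and 35 under the first 3 of these, 44 without mesothelial-marker members and 115 in the Grem1-positive remainder, against 74. Genes higher than in other cells in both libraries numbered 118, 21, 26 and 25 under the first 4, 14 without Kcnn3-marker and mesothelial-marker members and 18 in the Grem1-positive remainder, against 53. Genes lower in both numbered 264 with no minimum and 44 with 50 CPM, against 117. The interferon gamma median was 0.92 with 50 CPM and 1.31 with 10 CPM added, against 1.77. The MHC class I median was 0.60 with 50 CPM, 0.67 with at least 2 Ackr4 UMIs and 1.34 without Kcnn3-marker and mesothelial-marker members, against 0.96. Shares of members in the Cre and control libraries were 7.30% and 1.36% with Grem1 required, 7.18% and 1.63% with 2 Ackr4 UMIs, 9.02% and 2.60% after thinning, 7.67% and 2.34% without the Kcnn3-marker and mesothelial-marker members, and 5.60% and 1.12% for the Grem1-positive remainder.

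Some ratios turned round. The mesothelial list had a median of 0.44 without the mesothelial-marker members, from the 1 gene still measured, Myh11 had 0.63 with 2 Ackr4 UMIs, and Ereg had -0.00076 with the rule applied after thinning. Of members over other cells in the Cre library, log2 ratios without the Kcnn3-marker and mesothelial-marker members and then in the Grem1-positive remainder were -0.40 and -0.36 for Car8, -1.18 and -1.37 for Grm7, -1.74 and -2.07 for Kcnn3, -0.39 and -0.60 for P2ry1, -1.42 and -1.25 for Rgs5, and -0.016 and -0.18 for Tnc. In the control library they were -0.69 and -1.53 for Kcnn3 and -1.16 and -1.80 for Rgs5. Smoc2 was at -0.46 in the Cre Grem1-positive remainder and Ptn at -0.52 in the control one. With Grem1 required, Rgs5 was at -0.23 in the Cre library, and Smoc2 at -0.013 in the Cre and -0.39 in the control library. Car8, Grm7, Kcnn3 and P2ry1 define the subgroup left out, so their values follow from that choice; for the other genes the cause was not tested. The members' depth, 2451147 UMIs in the control library, limits genes under about 10 CPM.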
